A study of Mus musculus with 6 samples.

Results

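C-type lectin receptors are surface proteins that carry a C-type lectin-like domain, and the 8 genes described here are members of the family with known roles in innate immune recognition. They were chosen by symbol from a list of the family, with earlier results of these data known, and all 8 were found among the 47561 gene rows and among the 15778 genes that passed the filter on low counts. RNA was measured by sequencing in neutrophils sorted by flow cytometry from the bone marrow of male wild-type (WT) mice. Of the 6 libraries, 3 came from mice exposed for 4 weeks to chronic unpredictable mild stress (CUMS), a sequence of varied environmental stressors used to model depression-like states, and 3 came from mice labelled Control. No transgene or deletion is named in the labels. The sources used here do not give the strain, the age, the markers used in the sort or how libraries map to animals, so the p-values measure the spread between these samples, which may be technical.

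The receptors differ in how they signal. Clec4e (Mincle), Clec4d (MCL, or Dectin-3) and Clec4n (Dectin-2) have short tails and rely on the adaptor FcRγ, the product of Fcer1g, while Clec7a (Dectin-1), which binds fungal beta-glucan, carries an ITAM-like tyrosine motif in its own tail, and Clec5a (MDL-1) uses the adaptor DAP12, the product of Tyrobp. These activating receptors recruit the kinase SYK, which acts through CARD9, BCL10 and MALT1 on NF-kB and the genes of cytokines and chemokines. Clec12a (MICL) and Clec4a2 (DCIR) carry inhibitory ITIM motifs that recruit phosphatases, and Clec2d (Clr-b) is a ligand that natural killer cells read through an inhibitory receptor.

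In CUMS neutrophils the transcript of the cord factor receptor Clec4e was 19.6% lower and that of the beta-glucan receptor Clec7a was 17.1% higher than in Control neutrophils. These were the 2 of the 8 receptor genes that passed the test, at an adjusted p of 0.0037 and 0.0071 (edgeR quasi-likelihood test, Benjamini-Hochberg over all genes tested, threshold 0.05). Over all genes tested 4.5% passed, 2.36% higher and 2.14% lower in CUMS. The 3 CUMS and 3 Control libraries did not overlap for these 2 of the 8 genes, and for 22.9% of all genes tested. The other 6 did not pass, and Clec5a, Clec12a, Clec4a2 and Clec2d lay within 4% of their Control level. The median log2 fold change of the 8 genes was -0.05, against -0.01 over all genes tested.

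All 8 genes lie on chromosome 6 (GRCm38, GENCODE M21 annotation). Clec4a2, Clec4n, Clec4d and Clec4e form a cluster between 123106428 and 123289870, Clec2d, Clec12a and Clec7a lie between 129180615 and 129472779 in the natural killer gene complex, and Clec5a stands apart at 40574894 to 40585821. Clec4d (plus strand, 123262111 to 123275265) and Clec4e (minus strand, 123281789 to 123289870) face each other with 6523 bases between their 3′ ends. The deposited values cover whole genes, so no exon, intron or UTR can be singled out. GENCODE M21 types Clec7a as a polymorphic pseudogene with protein-coding transcripts, and the other 7 as protein coding. None of the 8 shares an exonic base with another annotated gene, although Clec4a2 has close paralogs with which similar reads could be exchanged. Of these, Clec4a1 measured 2.74 ± 0.539 CPM in CUMS and 2.74 ± 0.330 CPM in Control (SD, n = 3 each). Clec4a3 measured 4.66 ± 0.720 CPM in CUMS and 3.80 ± 0.334 CPM in Control. Clec4a4 measured 0.586 ± 0.157 CPM in CUMS and 0.193 ± 0.0676 CPM in Control. Clec4a3 and Clec4a4 were higher in CUMS but did not pass (adjusted p = 0.41 and 0.14).

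The sequences upstream of the start sites of Clec4e and Clec7a, which moved in opposite directions, and of Clec4d, the neighbour and partner of Clec4e, are shown because these are the genes the comparison turns on. Windows of 250 bases from RefSeq (GRCm38.p6) were matched by symbol for 7 of the 8 genes. Each line runs 5′ to 3′ on the strand of its gene and ends at the base before the start site: chr6:123289872-123290121 on the minus strand, chr6:129472786-129473035 on the minus strand and chr6:123261857-123262106 on the plus strand. Capitals mark the letters GAGGAA or their reverse complement, the core of the site read by PU.1, a transcription factor of myeloid cells.
Clec4e: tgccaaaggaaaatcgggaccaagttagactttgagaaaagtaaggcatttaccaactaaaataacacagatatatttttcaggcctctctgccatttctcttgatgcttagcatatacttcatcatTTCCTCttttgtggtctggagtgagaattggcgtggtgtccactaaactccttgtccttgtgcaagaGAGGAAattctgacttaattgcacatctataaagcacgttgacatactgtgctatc
Clec7a: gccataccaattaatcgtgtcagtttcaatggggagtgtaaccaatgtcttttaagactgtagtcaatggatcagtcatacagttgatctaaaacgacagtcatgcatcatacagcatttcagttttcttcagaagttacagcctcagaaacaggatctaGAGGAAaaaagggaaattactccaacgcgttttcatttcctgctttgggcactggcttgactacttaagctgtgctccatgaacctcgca
Clec4d: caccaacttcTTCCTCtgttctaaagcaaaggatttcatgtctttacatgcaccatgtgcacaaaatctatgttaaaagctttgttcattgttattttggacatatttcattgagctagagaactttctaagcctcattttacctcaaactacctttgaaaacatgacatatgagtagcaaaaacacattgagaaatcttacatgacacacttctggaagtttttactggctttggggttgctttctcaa
The Clec4e window held GAGGAA at -56 and its reverse complement at -123, the Clec7a window held it at -90, and the Clec4d window held the reverse complement at -240, counted from the start site to the leftmost base. Over the 7 windows 5 held the letters on either strand, against 23.3% of all 32851 windows of that length in the table. The letters ACANNNTGT, an incomplete form of the glucocorticoid response element, were in the windows of Clec4e (at -15) and Clec4a2 (at -94) and in 5.84% of all windows. The letters TTGCNNAA of the C/EBP factors were in those of Clec4e and Clec12a (9.56% of all windows), and TGANTCA of AP-1 was in that of Clec12a (6.75% of all windows). The Clec12a window belongs to a start site 461 bases from the RefSeq gene start. The windows of Clec12a and Clec4a2 lay inside the GENCODE spans of their genes. Both strands were searched for each motif, and no motif overlapped another in the 3 windows printed. A match of letters is a description of the sequence and not a site shown to be bound.

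The estimated counts of the libraries summed to between 78845457 and 109757558, equal to 19711364 to 27439390 read pairs at 4 estimated counts per pair. Clec4n rested on between 87.5 and 181 such read-pair equivalents per library, Clec2d on 353 to 549 and the other 6 genes on at least 3432 each. Values below are counts relative to the library total, scaled by the TMM method (TMM-scaled CPM, written CPM). The neutrophil markers were the most abundant of the marker lists, summing to between 111146 and 138115 CPM in CUMS and between 130364 and 142440 CPM in Control. Of these 12 markers 1 rose, 2 fell and 9 did not pass. Over all genes tested 4.5% passed in either direction, the share beside which this count and those of the next lists stand. Mmp9 rose (log2 fold change 0.12, adjusted p = 0.038). Ltf (-0.11, adjusted p = 0.044) and Camp (-0.27, adjusted p = 0.046) fell. Erythroid markers rose in 8 of 14 genes, their summed level running from 2538 to 3024 CPM in CUMS and from 1317 to 1886 CPM in Control. Of 10 B cell markers 1 rose, the immunoglobulin gene Ighm, and all 10 were higher in CUMS, summing to between 205 and 211 CPM in CUMS and between 166 and 169 CPM in Control. Of 12 eosinophil and basophil markers 2 rose and 0 fell, with sums of 34.3 to 37.3 CPM in CUMS and 31.0 to 32.5 CPM in Control. Those that rose were the eosinophil granule genes Prg2, at 4.82 ± 0.708 CPM in CUMS and 0.885 ± 0.114 CPM in Control, and Epx, at 1.49 ± 0.148 CPM in CUMS and 0.119 ± 0.110 CPM in Control (SD, n = 3 each). Of the 12 genes, 6 were higher and 6 lower in CUMS. The groups were apart for 3 with CUMS above and 3 with CUMS below, against 11.5% in each direction over all genes tested. The 3 below were Ms4a2, Gata2 and Prss34, which did not pass (adjusted p = 0.068, 0.053 and 0.23). Siglecf measured 20.1 ± 1.03 CPM in CUMS and 19.2 ± 0.676 CPM in Control. The sums of 12 natural killer and T cell markers overlapped, at 4.43 to 6.07 CPM in CUMS and 4.30 to 6.21 CPM in Control. The part of these lists in the receptor results was not tested. In bulk samples, fewer cells of a type and less RNA per cell cannot be told apart.

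**Figure D1:**
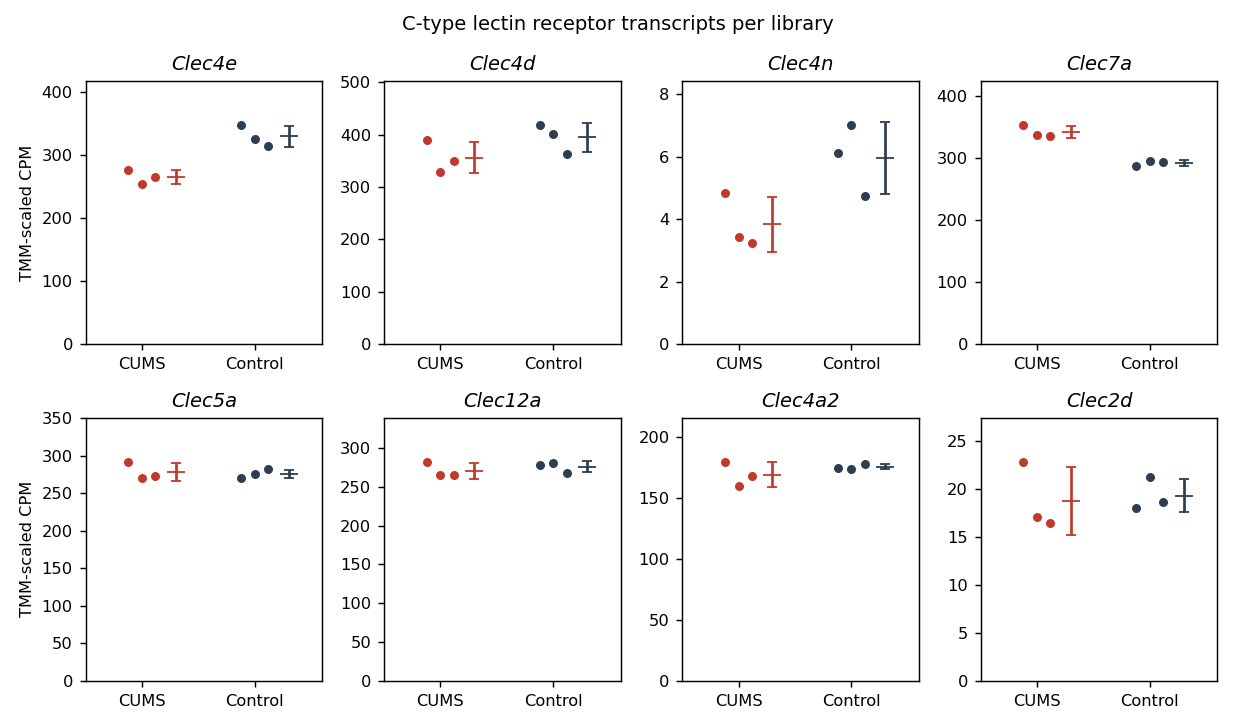
TMM-scaled CPM (vertical axes, each starting at 0) of the 8 receptor transcripts in each of 3 CUMS libraries (red) and 3 Control libraries (dark blue), with the mean and SD of each group beside the points. The groups are apart for Clec4e, where CUMS is lower, and for Clec7a, where CUMS is higher, and overlap for the other 6. Over all genes tested the groups are apart in 22.9%.

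Compared per length of the longest protein-coding transcript, the receptors covered a wide range of levels. Clec4d stood highest at 269 ± 22.9 CPM per kb in CUMS and 298 ± 21.2 CPM per kb in Control (SD, n = 3 each). Clec7a followed in CUMS at 150 ± 4.43 CPM per kb, where Clec4e stood at 105 ± 4.46 CPM per kb. In Control these were 128 ± 2.02 CPM per kb for Clec7a and 131 ± 6.70 CPM per kb for Clec4e, a gap smaller than the SD of Clec4e though not than that of Clec7a. Clec12a was next to Clec4e, with 108 ± 4.07 CPM per kb in CUMS and 110 ± 2.69 CPM per kb in Control, and in CUMS the gap between Clec12a and Clec4e was also within their SD. Clec5a had 74.3 ± 3.23 CPM per kb in CUMS and 73.6 ± 1.55 CPM per kb in Control. Clec4a2 had 68.1 ± 4.09 CPM per kb in CUMS and 70.8 ± 0.862 CPM per kb in Control. The low end was held by Clec2d, at 15.5 ± 2.92 CPM per kb in CUMS and 15.9 ± 1.41 CPM per kb in Control, and by Clec4n, at 3.12 ± 0.717 CPM per kb in CUMS and 4.84 ± 0.933 CPM per kb in Control. The order of the middle genes depends on the length used: divided by all annotated exonic bases, Clec4e measured 53.4 CPM per kb in CUMS and 66.4 CPM per kb in Control, below Clec5a at 72.5 CPM per kb in CUMS and 71.8 CPM per kb in Control, and Clec7a measured 130 CPM per kb in CUMS and 111 CPM per kb in Control, above Clec4e in both groups.

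**Figure D2:**
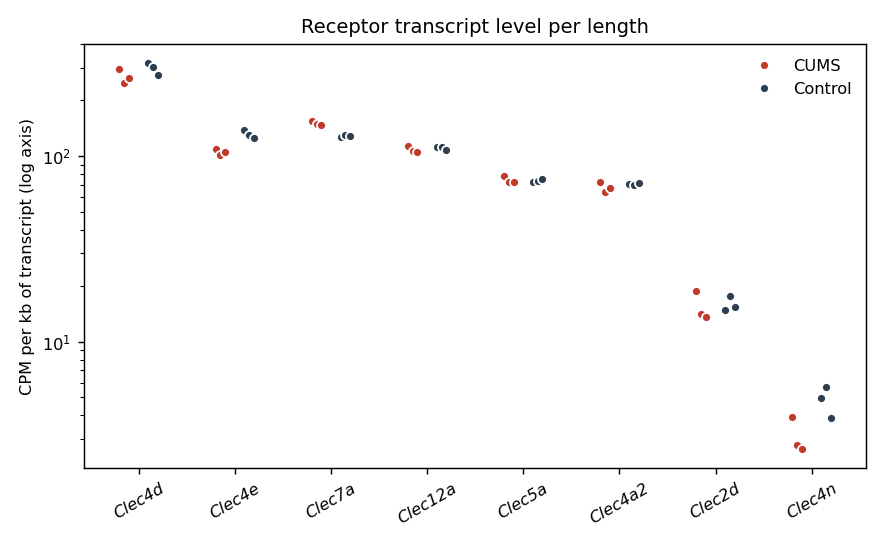
CPM per kb of the longest protein-coding transcript (vertical log axis) for the 8 receptor genes (horizontal axis, ordered by their Control mean), each point a library, CUMS in red left of Control in dark blue. Clec4d stands highest, Clec2d and Clec4n stand lowest, and Clec7a lies above Clec4e in CUMS while their Control libraries lie close together.

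Among the receptors coupled to FcRγ, Clec4e moved beyond the spread of the libraries. Clec4e, which recognises the cord factor of mycobacteria and the nuclear protein SAP130 released by dead cells, measured 276, 254 and 265 CPM in CUMS replicates 1, 2 and 3, against 348, 326 and 315 CPM in Control replicates 1, 2 and 3. Every CUMS library lay below every Control library. The means were 265 ± 11.2 CPM in CUMS and 330 ± 16.9 CPM in Control (SD, n = 3 each). The log2 fold change was -0.31 ± 0.049 (SE, 95% interval -0.42 to -0.21). It passed in all 12 alternative analyses, with log2 fold changes between -0.34 and -0.27 and adjusted p-values between 1.8e-08 and 0.031.

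Clec4d, which pairs with Clec4e and raises its surface level in mouse myeloid cells, measured 389, 330 and 350 CPM in CUMS replicates 1 to 3, against 419, 402 and 364 CPM in Control replicates 1 to 3. The groups overlapped through CUMS replicate 1, which lay above Control replicate 3. The log2 fold change was -0.15 ± 0.065 (SE, 95% interval -0.29 to -0.01), and the gene did not pass over all genes tested (adjusted p = 0.27, unadjusted p = 0.042). The ratio of Clec4e to Clec4d within a library, which does not depend on scaling, was 0.710, 0.770 and 0.757 in CUMS replicates 1 to 3 and 0.831, 0.811 and 0.865 in Control replicates 1 to 3. All 3 CUMS ratios were below the Control ratios, with a difference of -0.16 on the log2 scale (exact two-sided permutation p = 0.1, the smallest that 3 against 3 libraries allow). Both genes were chosen with earlier results of these data known, so this p is only a description.

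Clec4n, which binds fungal mannans, was the least abundant of the 8, at 4.85, 3.42 and 3.24 CPM in CUMS replicates 1 to 3 and 6.11, 7.01 and 4.74 CPM in Control replicates 1 to 3. CUMS replicate 1 lay above Control replicate 3, so the groups overlapped. Its log2 fold change of -0.64 ± 0.20 (SE, 95% interval -1.07 to -0.21) had the largest size of the 8 and the widest interval, and it did not pass (adjusted p = 0.10, unadjusted p = 0.0073). It passed with DESeq2 (log2 fold change -0.63, adjusted p = 0.039) and without CUMS replicate 1 (-0.84, adjusted p = 0.044), while over its 12 alternatives the adjusted p ran from 0.039 to 0.34.

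Clec7a, the receptor with its own ITAM-like motif, measured 354, 337 and 336 CPM in CUMS replicates 1 to 3, against 287, 296 and 293 CPM in Control replicates 1 to 3. Every CUMS library lay above every Control library. Its means were 342 ± 10.1 CPM in CUMS and 292 ± 4.60 CPM in Control (SD, n = 3 each). The log2 fold change was 0.23 ± 0.039 (SE, 95% interval 0.14 to 0.31). The gene passed in all 12 alternatives, with log2 fold changes between 0.20 and 0.24 and adjusted p-values between 5.1e-07 and 0.035. Set against Clec4e within the same library, Clec7a had 1.28, 1.33 and 1.27 estimated counts per estimated count of Clec4e in CUMS replicates 1 to 3 and 0.826, 0.909 and 0.932 in Control replicates 1 to 3. This ratio was formed after the values were seen and is given without a test.

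Markers of monocytes and macrophages were read beside the receptors, and their part in the receptor results was not tested. The 16 markers summed to between 287 and 297 CPM in CUMS and between 265 and 270 CPM in Control. By log2 fold change 9 were higher and 7 lower in CUMS. Of the 16, 2 rose and 0 fell, against 4.5% passing in either direction over all genes tested. Those that rose were Csf1r, the receptor of colony-stimulating factor 1, at 201 ± 1.40 CPM in CUMS and 176 ± 5.72 CPM in Control, and F13a1, a coagulation factor subunit, at 3.07 ± 0.651 CPM in CUMS and 1.21 ± 0.182 CPM in Control (SD, n = 3 each). Without Csf1r the sum was 84.9 to 97.6 CPM in CUMS and 85.0 to 98.7 CPM in Control. In both groups 13 of the 16 were below 5 CPM, among them the monocyte receptors Ccr2 (1.09 ± 0.281 CPM in CUMS and 0.932 ± 0.374 CPM in Control) and Cx3cr1 (0.442 ± 0.376 CPM in CUMS and 0.228 ± 0.148 CPM in Control), and none was at 0 in every library. The 12 dendritic cell markers summed to between 70.8 and 74.8 CPM in CUMS and between 70.5 and 77.6 CPM in Control, and these ranges overlapped.

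Clec5a, the DAP12-coupled receptor, measured 292, 270 and 272 CPM in CUMS replicates 1 to 3 and 270, 275 and 282 CPM in Control replicates 1 to 3. The groups overlapped, with a log2 fold change of 0.01 ± 0.043 (SE, adjusted p = 0.93). The 95% interval of -0.08 to 0.11 spans a fold of 0.945 to 1.08.

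Neither inhibitory receptor passed the test, and the groups overlapped for both. Clec12a, which recognises uric acid crystals and dead cells, measured 283, 265 and 265 CPM in CUMS replicates 1 to 3 and 279, 281 and 268 CPM in Control replicates 1 to 3. Its groups overlapped, with a log2 fold change of -0.03 ± 0.042 (SE, 95% interval -0.12 to 0.06, adjusted p = 0.82). Clec4a2 measured 180, 160 and 168 CPM in CUMS replicates 1 to 3 and 175, 174 and 178 CPM in Control replicates 1 to 3. Here the CUMS libraries spread around the close Control values, with a log2 fold change of -0.06 ± 0.049 (SE, 95% interval -0.16 to 0.05, adjusted p = 0.65).

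Clec2d, the natural killer cell ligand, measured 22.8, 17.1 and 16.4 CPM in CUMS replicates 1 to 3 and 18.0, 21.2 and 18.6 CPM in Control replicates 1 to 3. Its CUMS libraries held both the highest and the lowest value, and the 95% interval of its fold, 0.805 to 1.17, was wider than those of Clec5a, Clec12a and Clec4a2 (log2 fold change -0.04 ± 0.12, SE, adjusted p = 0.93).

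**Figure D3:**
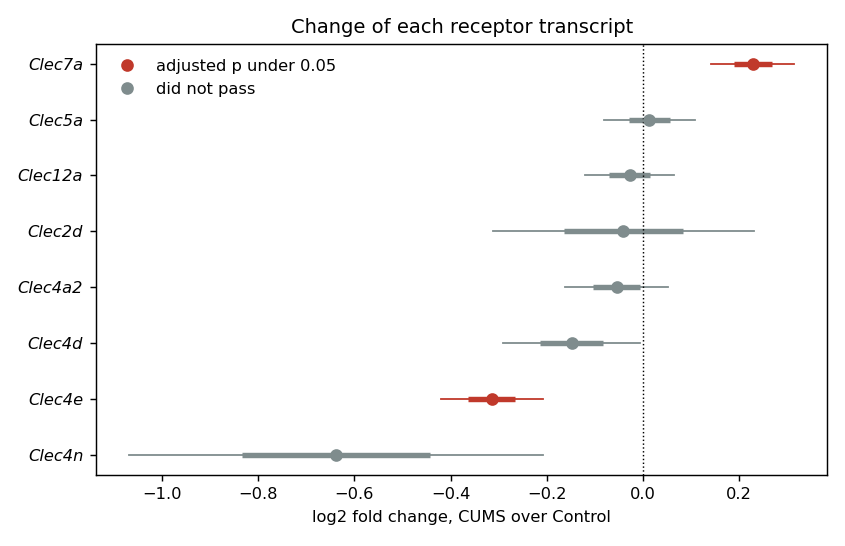
Log2 fold change of CUMS over Control (horizontal axis, 0 dotted) for each receptor gene, with the SE as a thick line and the 95% interval as a thin line, red where the adjusted p is under 0.05. Clec7a lies to the right of 0 and Clec4e to the left, the intervals of Clec5a, Clec12a, Clec2d and Clec4a2 include 0, and that of Clec4n is the widest.

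Among the 3 CUMS libraries, replicate 1 held the highest value of all 8 genes. The share of all genes highest in replicate 1 was not counted, so whether this is particular to the receptors is not known. The neutrophil markers summed to 138115, 111146 and 116720 CPM in CUMS replicates 1 to 3. These markers did not all share that order: S100a8 measured 19775, 11997 and 13583 CPM and Mmp9 9267, 9283 and 9367 CPM. The signalling genes described below summed to 9885, 9920 and 9834 CPM. The B cell markers were lowest in replicate 1, at 205, 211 and 209 CPM. The 8 genes summed to 1802, 1636 and 1676 CPM in CUMS replicates 1 to 3 and to 1802, 1783 and 1724 CPM in Control replicates 1 to 3. The sums overlapped, with means of 1704 ± 86.5 CPM in CUMS and 1769 ± 40.7 CPM in Control (SD, n = 3 each). Within this sum the make-up was uneven between groups: Clec4e held 15.6% ± 0.247 in CUMS and 18.6% ± 0.598 in Control, and Clec7a held 20.1% ± 0.485 in CUMS and 16.5% ± 0.544 in Control (SD, n = 3 each). The shares of Clec12a were 15.9% ± 0.272 in CUMS and 15.6% ± 0.155 in Control, and those of Clec4a2 were 9.92% ± 0.138 in CUMS and 9.93% ± 0.345 in Control.

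The genes lying between members on chromosome 6 were read beside them. Those beyond Clec4a2, Clec4e, Clec2d or Clec7a, the ends of these stretches, were not read as neighbours. Between Clec4a2 and Clec4e, 5 genes were tested and Clec4e alone passed. All 5, of which 4 are members described above, had log2 fold changes below 0, from -0.64 to -0.06. Over all genes tested, 8135 of 15778 lay below 0. The gene not yet named there, Clec4b2, a further receptor gene of the cluster, measured 2.25 ± 0.362 CPM in CUMS and 2.52 ± 0.216 CPM in Control (SD, n = 3 each), with a log2 fold change of -0.16 ± 0.20 (SE, adjusted p = 0.77). Between Clec2d and Clec7a, 9 genes were tested and Clec7a alone passed. Its nearest neighbour Clec1a, a receptor of fungal melanin, measured 1.86 ± 0.306 CPM in CUMS and 1.34 ± 0.203 CPM in Control, without overlap but also without passing (log2 fold change 0.47 ± 0.25, adjusted p = 0.38).

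Of 33 genes of the adaptors and enzymes through which the receptors signal, 1 rose, 0 fell and 32 did not pass, with a median log2 fold change of 0.04. The share that passed is near the 4.5% over all genes tested. The count depended on the setting: DESeq2 called 5, and the replicate block, values divided by 4 and leaving out CUMS replicate 1 each called 3. Without the filter on low counts or with any other library left out, 0 passed. The calls over all genes moved too: DESeq2 called 1154 of 10802 tested and the replicate block 931 of 15778. With values divided by 4, 895 of 12857 passed, and without CUMS replicate 1, 697 of 16603. Cbl, a ubiquitin ligase that acts on tyrosine kinase signalling, was the gene that rose, at 933 ± 41.7 CPM in CUMS and 800 ± 50.4 CPM in Control (SD, n = 3 each), with a log2 fold change of 0.22 ± 0.050 (SE, adjusted p = 0.029). With CUMS replicate 2, CUMS replicate 3 or any Control library left out it no longer passed (adjusted p 0.057 to 0.15), nor did it without the filter on low counts (0.075). Fcer1g, the adaptor of Clec4e, Clec4d and Clec4n, measured 319, 265 and 298 CPM in CUMS replicates 1 to 3 and 337, 311 and 304 CPM in Control replicates 1 to 3. Its groups overlapped (log2 fold change -0.11 ± 0.064, adjusted p = 0.43). Tyrobp, the adaptor of Clec5a, measured 939 ± 90.1 CPM in CUMS and 946 ± 81.3 CPM in Control (log2 fold change -0.01 ± 0.071, adjusted p = 0.96), and Card9 130 ± 2.49 CPM in CUMS and 131 ± 4.31 CPM in Control (-0.01 ± 0.044, adjusted p = 0.95). Syk, the kinase shared by the activating receptors, measured 1061, 1120 and 1098 CPM in CUMS replicates 1 to 3 and 1002, 1044 and 1041 CPM in Control replicates 1 to 3, without overlap but with a log2 fold change of 0.09 ± 0.036 that did not pass (adjusted p = 0.25). The groups were apart for 8 of the 33 genes, 7 with CUMS above and 1 with CUMS below, against 11.5% in each direction over all genes tested. Ptpn6, a phosphatase recruited by ITIM motifs, named after its values were seen, had a log2 fold change of -0.02 ± 0.035 (adjusted p = 0.86).

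Transcripts that follow receptor engagement through CARD9 moved both ways. Of 16 listed, 9 could be tested, of which 2 fell and 1 rose, against 4.5% passing in either direction over all genes tested. Il1b measured 608 ± 17.1 CPM in CUMS and 776 ± 39.8 CPM in Control (SD, n = 3 each), with a log2 fold change of -0.35 ± 0.044 (adjusted p = 0.0010), and the neutrophil chemoattractant gene Cxcl2 337 ± 5.75 CPM in CUMS and 480 ± 38.3 CPM in Control (-0.51 ± 0.054, adjusted p = 3.2e-04). Both passed in all 12 alternatives. Ccl3, a chemokine gene at 8.74 ± 0.592 CPM in CUMS and 5.98 ± 0.160 CPM in Control, rose by 0.55 ± 0.12 on the log2 scale (adjusted p = 0.022). With CUMS replicate 2, CUMS replicate 3 or any Control library left out it no longer passed (adjusted p 0.062 to 0.11). Other receptors feed the same genes, so the list does not single out C-type lectins.

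Elsewhere in the family of C-type lectin domain genes, 30 of 58 listed could be tested, and 2 fell, 0 rose and 28 did not pass, with a median log2 fold change of 0.0046. Over all genes tested 4.5% passed, so 2 of 30 is near that share. Cd93, a surface glycoprotein gene, measured 52.0 ± 1.31 CPM in CUMS and 64.3 ± 5.59 CPM in Control (SD, n = 3 each), with a log2 fold change of -0.31 ± 0.065 (adjusted p = 0.020). Thbd, the thrombomodulin gene, measured 16.8 ± 0.692 CPM in CUMS and 22.9 ± 2.31 CPM in Control (-0.44 ± 0.090, adjusted p = 0.017). The Cd93 call ended without Control replicate 2 or any single CUMS library (adjusted p 0.058 to 0.10) and without the filter on low counts (0.060), and Thbd no longer passed with replicate 1 or 2 of Control or replicate 2 or 3 of CUMS left out (0.062 to 0.092).

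**Figure D4:**
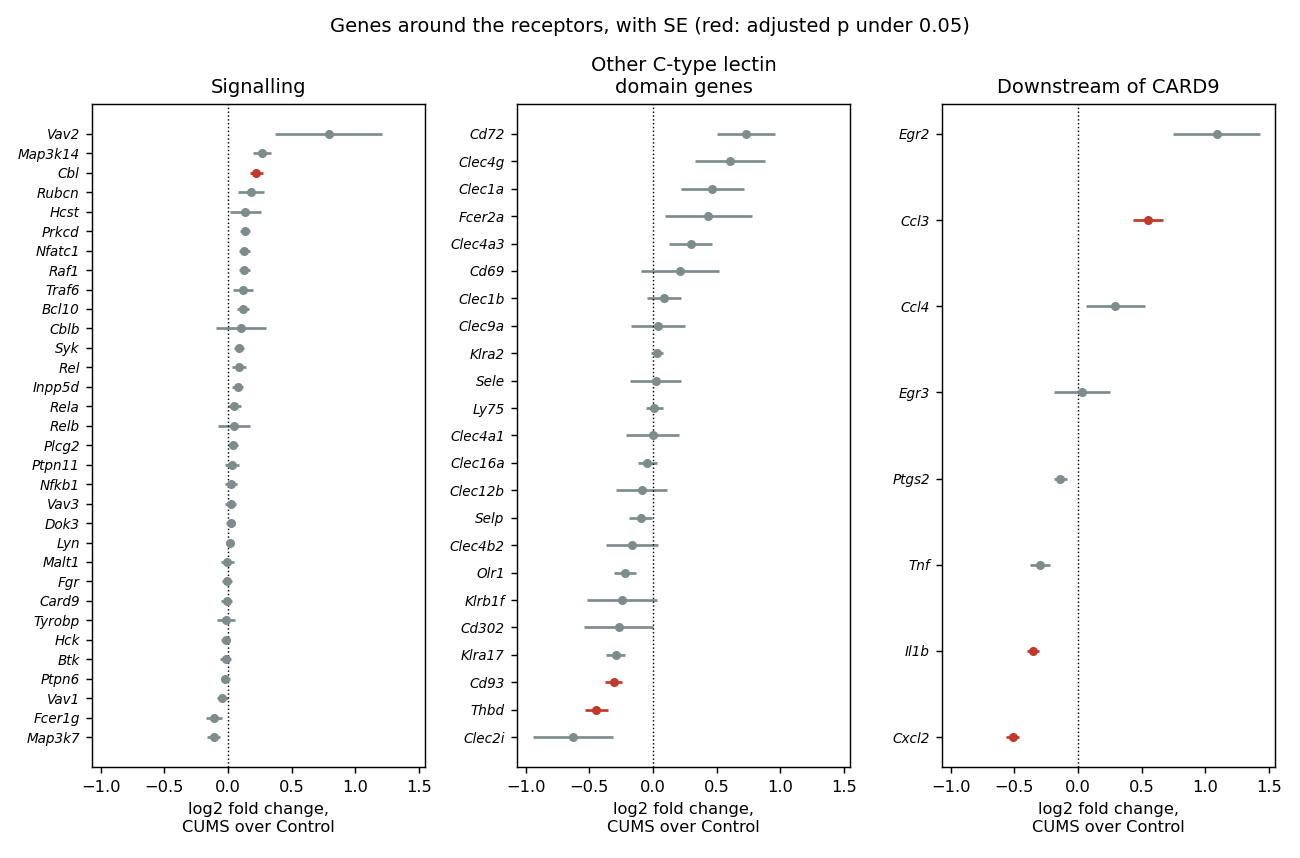
Log2 fold change of CUMS over Control (horizontal axes) with its SE for the tested genes of at least 1 CPM in either group, in panels for the signalling genes (32 drawn), other C-type lectin domain genes (23 drawn) and transcripts downstream of CARD9 (8 drawn), red where the adjusted p is under 0.05. Most signalling genes lie close to 0, Cd93 and Thbd lie left of 0 in the middle panel, and Il1b and Cxcl2 lie left and Ccl3 right of 0 in the last.

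Across the 6 libraries, the genes of at least 10 CPM whose log2 CPM followed that of Clec4e most closely were Id1, an inhibitor of helix-loop-helix transcription factors, Ldha, a lactate dehydrogenase subunit, and Gadd45a, a growth arrest gene, with Pearson correlations of 0.997, 0.997 and 0.994. These are descriptions over 6 points that fall into the same 2 groups and share their scaling, and 272 of the 6446 genes compared had a correlation above 0.9. The log2 fold changes were -0.57 for Id1, -0.27 for Ldha and -0.25 for Gadd45a, with adjusted p-values of 0.0041, 0.0049 and 0.016. Gadd45a no longer passed with replicate 1 or 2 of Control or replicate 2 or 3 of CUMS left out (adjusted p 0.058 to 0.087).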

How the data were processed

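Total RNA (1 µg) was made into TruSeq libraries and read as pairs of 150 bp, per the labels' protocols. Tools in the submitters' processing notes are HISAT2 2.1, featureCounts 1.6.4, cutadapt 1.16.5, bcl2fastq 2.19 and DESeq2 2.11.40.6, with the build mm10. The deposited whole numbers per gene were taken as estimated counts, since 4, 8, 12 and 16 occurred 1.38 to 1.89 times as often as their neighbours and 1588 rows carry identifiers of assembled transcripts. Where rows shared a symbol, the highest total kept it. The sources used here do not say whether strand was used or how similar genes were counted.

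The values entered edgeR 4.0.16 (R 4.3.3) unchanged: filterByExpr, TMM scaling and the quasi-likelihood F test on group alone, adjusted by Benjamini-Hochberg over 15778 genes. SEs derive from the F statistic. On simulated counts of 15249 genes the test recovered 84% of 2-fold and 43% of 1.3-fold changes, and 9 of 136 calls were false. Alternatives were RLE scaling, plain totals, no filter, DESeq2 1.42.0, values divided by 4, the replicate block and each library left out. The members and gene lists were chosen with earlier results of these data known. Named genes were the 8 members, listed genes past the threshold, Fcer1g, Tyrobp, Syk, Card9 and the 3 genes most like the member of smallest adjusted p. Neighbours, marker genes, Clec4a1, Clec4a3, Clec4a4 and Ptpn6 were added after their values were seen. For 1 gene of the family the result is not reported here.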

Additional observations from a re-analysis of the deposited data

How the results depend on the processing

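The calls of Clec4e and Clec7a held in all 12 alternatives, and the count of receptor genes called was 2 in 10 of them, 3 with DESeq2 and 3 without CUMS replicate 1, where Clec4n was added. The list and table counts depended more on the setting. Without the filter on low counts, 0 signalling genes, 1 other C-type lectin domain gene and 462 of 23638 genes in all were called. DESeq2 called 5 signalling genes, 3 other C-type lectin domain genes, 5 transcripts downstream of CARD9 and 1154 of 10802 genes in all. With values divided by 4, 3 signalling genes, 3 other C-type lectin domain genes and 895 of 12857 genes in all were called. Leaving out each library in turn gave 0 to 3 signalling genes, 0 to 2 other C-type lectin domain genes, 2 to 4 transcripts downstream of CARD9 and 305 to 697 genes in all, with 2 to 3 receptor genes. The cause of these shifts was not tested.

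With the replicate block, 2 receptor genes, 3 signalling genes, 3 other C-type lectin domain genes and 931 of 15778 genes in all were called. The deviations from the group means of same-numbered libraries had correlations of 0.0081, 0.0035 and -0.026. Those of differently numbered libraries ran from -0.029 to 0.027. Whether same-numbered libraries share a batch was not tested.

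Among the named genes, 9 of 252 alternative values changed sign, each of a gene that did not pass and each with a library left out. Over the left-out libraries Clec5a ran from -0.023 to 0.036, Clec2d from -0.20 to 0.049, Tyrobp from -0.090 to 0.056 and Card9 from -0.031 to 0.015 (log2). Clec4n had the fewest read-pair equivalents of the 8, 87.5 to 181 per library, and the widest interval, and the part of depth in that width was not tested. RLE scaling and plain totals moved the median of all genes by 0.0054 and 0.0046 (log2).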
